A study of Mus musculus with 6 samples.

Results

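Two-pore domain potassium (K2P) channels carry the background, or leak, potassium currents that hold the resting membrane potential of neurons and glia. Each subunit has a pair of pore-forming domains, and the subunits work as dimers. The family is divided into groups by sequence and gating. TWIK channels pass weak inward-rectifying currents, TREK channels respond to stretch, lipids and temperature, TASK channels are shut by extracellular acid, and THIK channels are blocked by halothane. In the brain, Kcnk1 (TWIK-1) and Kcnk2 (TREK-1) have been linked to the passive conductance of astrocytes. Kcnk13 (THIK-1) is known from the resting conductance of microglia, and Kcnk6 (TWIK-2) from potassium efflux in macrophages.

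Rows with the symbols Kcnk1, Kcnk2, Kcnk3, Kcnk5, Kcnk6, Kcnk9, Kcnk10, Kcnk12 and Kcnk13 were read from all 6 libraries, which gave 9 genes of the 24421 listed. All 9 reached the minimum mean of 1 normalized count needed for testing. The family has 5 further genes in the tables (Kcnk4, Kcnk7, Kcnk15, Kcnk16 and Kcnk18), and they are described after the 9.

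The libraries came from the olfactory bulbs of adult male mice, with 1 library per mouse and 3 mice per group. Both groups received the virus AAV-GFAP-iCre-P2a-TurboRFP, in which a GFAP promoter drives the recombinase iCre together with the red protein TurboRFP. Sox9 KO mice were Sox9fl/fl, so that Cre removes the floxed part of the astrocyte transcription factor gene Sox9. Controls carried no floxed allele; they are labelled WT, with the strain given as C57BL/6 in one label field and as C57BL/6J in another. Bulbs were taken 4 weeks after injection and TurboRFP-positive cells were collected by FACS, so a gene's level here is an average over every cell that passed the sort. The comparison asks how K2P transcripts differed between sorted cells of the 2 groups.

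Sox9 itself had 5185, 6562 and 4921 normalized counts (reads divided by the size factor of the library) in the control libraries and 52.6, 64.3 and 57.7 in the KO libraries. Recovered reads on genes ran from 18242129 to 86906527 per library, and 1 read was worth 0.395 to 1.58 normalized counts. The cells are labelled astrocytes, and the 12 astrocyte markers examined were present in all 6 libraries, with a summed level of 304442 to 347633 normalized counts in controls and 29770 to 33699 in KO. All 12 were called lower, and the median of their log2 fold changes was -3.48 (range -5.25 to -2.72). The 14 microglia and macrophage markers summed to 200769 to 228255 in controls and 695426 to 806947 in KO, and 13 of the 14 were called higher (median log2 fold change 1.98). The neuron markers summed to 20654 to 27997 in controls and 2938 to 5220 in KO, with 13 of 14 called lower. Oligodendrocyte markers (9 of 10), oligodendrocyte precursor markers (7 of 7) and olfactory ensheathing cell markers (7 of 8) were mostly called lower as well. Of the 12 endothelial and mural markers, 7 were called lower and 1, Flt1, higher. None of the markers on these lists was at 0 throughout a group. In bulk RNA, fewer cells of a type and less RNA per cell cannot be told apart.

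Of the 9 K2P genes, 6 were called lower in KO and 2 were called higher (limma, Benjamini-Hochberg adjusted p under 0.05 over all 18413 genes tested, and at least 1.5-fold). The genes called lower were Kcnk1, Kcnk2, Kcnk3, Kcnk9, Kcnk10 and Kcnk12, and those called higher were Kcnk6 and Kcnk13. Kcnk5 was not called. Among all genes tested, 28.8% were called lower and 22.2% were called higher. The KO libraries all lay below the controls for 7 K2P genes, against 34.7% of all genes, and all above them for the other 2, against 32.4% of all genes. The median log2 fold change was -2.60 over the 9 genes (range -5.47 to 2.0) and -0.07 over all genes tested. Of all calls, 56.4% were in the lower direction, a share that was 67.8% with scaling to the library total, 71.5% with that total taken without the ribosomal RNA gene Rn45s, and 43.5% after quantile normalization. These scalings moved the median of all genes by -0.23, -0.31 and 0.26 on the log2 scale, and under each of them the 8 called genes kept their direction. Quantile normalization made the decreases smaller, with log2 fold changes of -4.40 for Kcnk2, -1.80 for Kcnk3, -2.22 for Kcnk9 and -2.77 for Kcnk10. Kcnk12 was then at -0.80 and lost its call (limma adjusted p = 0.125).

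**Figure D1:**
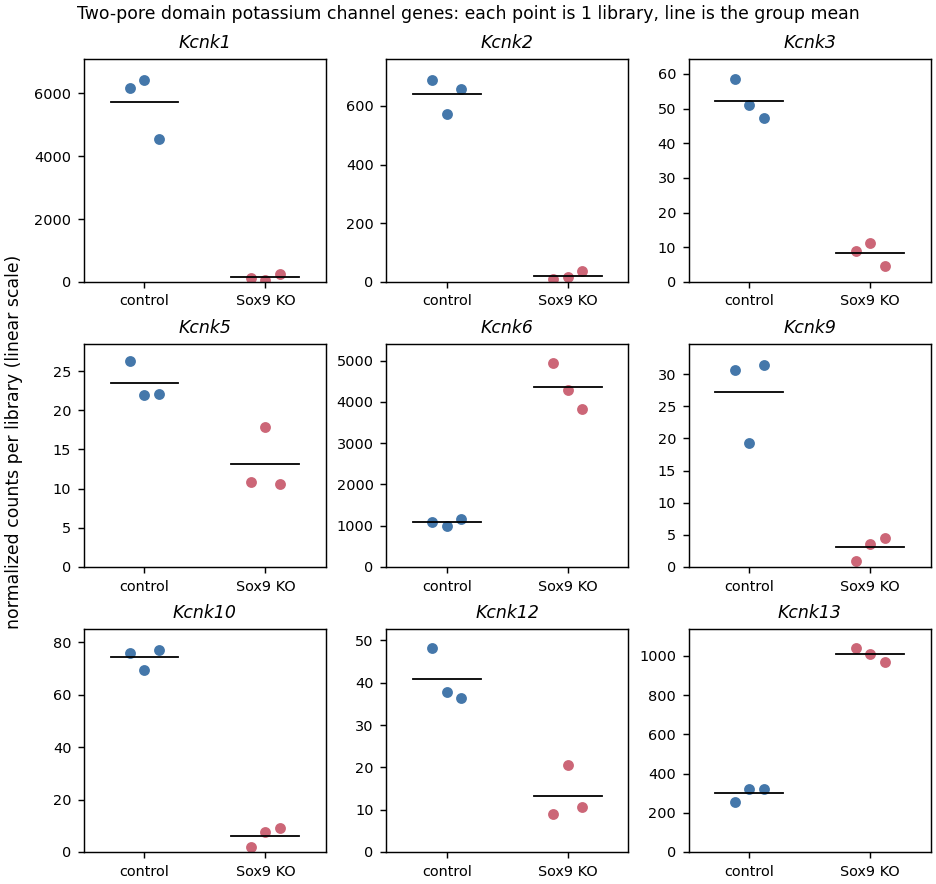
Normalized counts of the 9 K2P genes in each library on linear axes that start at 0, with controls in blue, Sox9 KO in red and a line at the group mean (n = 3 per group). The groups are apart for every gene shown, with Kcnk6 and Kcnk13 higher in KO and the other 7 lower.

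Kcnk1 encodes TWIK-1. It lies on chromosome 8 (chr8:125995170-126030685, plus strand, GENCODE M21 on GRCm38, the assembly also named mm10) and has 3 exons. Its normalized counts were 6161, 6440 and 4565 in the control libraries and 117, 71.5 and 242 in the KO libraries. Even the highest KO library, replicate 3, was far under the lowest control. The group means were 5722 ± 1012 and 143 ± 88.0 (SD, n = 3 each), a 39.9-fold lower level in KO (limma log2 fold change -5.47, SE 0.35, adjusted p = 3.8e-07). Kcnk1 had the largest change of the 9 genes. An antisense gene, Gm45875, overlaps Kcnk1. Overlaps here and below are of whole gene spans, and overlap of exons was not examined. Whether reads of shared exon bases were told apart is not known, as no source used here gives the strand setting of the counting.

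Kcnk2 encodes TREK-1, a channel opened by membrane stretch and arachidonic acid. It spans chr1:189207930-189402273 on the minus strand. Its normalized counts were 689.8, 574 and 659 in controls and 10.9, 17.0 and 36.5 in KO. The groups did not overlap, and KO replicate 3 was again the highest of the KO libraries. The level was 29.9-fold lower in KO, with means of 641 ± 60.0 and 21.5 ± 13.3 (SD, n = 3 each; limma log2 fold change -5.00, SE 0.37, adjusted p = 1.2e-06). Of the 4 genes that overlap Kcnk2, 2 lie on the other strand. The paper that reported these data lists qRT-PCR primers for Kcnk2 among those used to check RNA-seq changes. It reports that the changes in the selected genes were also seen by qRT-PCR. Its patch-clamp recordings found similar current-voltage curves in Sox9 KO and control astrocytes of the olfactory bulb. How the transcript levels of Kcnk1 and Kcnk2 relate to those currents was not tested.

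Promoter windows of Kcnk1 and Kcnk2, which were lower in KO, and of Kcnk13, which was higher, are shown because the deleted factor, SOX9, binds DNA. RefSeq windows on GRCm38.p6 reach from 250 bases before a transcript start to 50 bases after it, and 10 windows were found for 6 of the 9 genes. Kcnk3, Kcnk6 and Kcnk9 had no window in the table. Both strands were searched for ACAAAG, a core of SOX binding sites, for its shorter variant ACAAT, and for TTGGC, the core letters of NFI sites. The windows below run 5′ to 3′ on the strand of the gene, and capitals mark the matches. A match on the other strand reads as the reverse complement, which is CTTTGT for the first motif, then ATTGT for the second motif, and GCCAA for that of NFI. No matches overlapped.
Kcnk1, chr8:125994852-125995151, plus strand: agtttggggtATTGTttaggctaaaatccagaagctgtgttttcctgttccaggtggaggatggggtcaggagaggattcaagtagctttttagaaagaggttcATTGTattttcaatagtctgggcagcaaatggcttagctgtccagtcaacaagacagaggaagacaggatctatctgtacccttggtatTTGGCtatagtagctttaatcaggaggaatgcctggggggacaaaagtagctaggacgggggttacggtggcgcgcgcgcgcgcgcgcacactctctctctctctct
Kcnk2, 1 of 4 windows, chr1:189343658-189343957, minus strand: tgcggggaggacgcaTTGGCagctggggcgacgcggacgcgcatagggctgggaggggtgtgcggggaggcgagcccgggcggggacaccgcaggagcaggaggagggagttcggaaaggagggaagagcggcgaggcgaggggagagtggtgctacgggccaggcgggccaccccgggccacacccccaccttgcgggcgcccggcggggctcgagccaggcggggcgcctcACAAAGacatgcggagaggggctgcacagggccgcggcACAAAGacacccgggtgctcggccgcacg
Kcnk13, chr12:99964249-99964548, plus strand: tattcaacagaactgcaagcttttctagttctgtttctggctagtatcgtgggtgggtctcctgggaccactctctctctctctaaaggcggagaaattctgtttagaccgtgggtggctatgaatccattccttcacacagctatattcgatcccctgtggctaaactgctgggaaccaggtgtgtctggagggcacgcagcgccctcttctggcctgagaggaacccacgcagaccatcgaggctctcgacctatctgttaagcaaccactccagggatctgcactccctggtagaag

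The Kcnk1 window held ACAAT letters at 2 places, both on the other strand, starting 240 and 146 bases before the start, and TTGGC 57 bases before it. The GENCODE gene begins just downstream of this RefSeq window. The Kcnk2 window shown, which has the most ACAAAG of the Kcnk2 windows, held it 17 bases before the start and again at base 22 after it. Another Kcnk2 window (chr1:189343304-189343603) held 1 further ACAAAG, and the remaining Kcnk2 windows held none of the searched letters. The Kcnk13 window, from a gene that was higher in KO, held none of the searched letters, and neither did that of Kcnk12, called lower. The windows of Kcnk10, also called lower, and of Kcnk5 held TTGGC but neither ACAAAG nor ACAAT. The windows shown therefore do not stand for all genes called lower. In all, ACAAAG was in 2 of the 10 windows (both of Kcnk2), ACAAT in 1 and TTGGC in 6. Of 32851 windows of the same length over all genes, 18.7% held ACAAAG, 31.0% held ACAAT and 46.7% held TTGGC. By gene, 21.0% of 27025 genes had ACAAAG in any window, and of the 6 K2P genes with a window only Kcnk2 did. Such short letters are common, and a match describes the sequence without showing a binding site.

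Kcnk10 encodes TREK-2, the closest relative of TREK-1 in this set. It had 76.0, 69.5 and 77.2 normalized counts in controls and 1.99, 7.50 and 9.11 in KO, where they came from 2, 19 and 6 reads. All KO libraries were well under the controls. The log2 fold change was -3.56 (limma, SE 0.51, adjusted p = 0.00015), and it was -2.88 with a pseudocount of 5. Kcnk10 overlaps 2 other genes, 1 of them on the other strand.

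The acid-sensitive TASK channels were at low levels in both groups. Kcnk3 (TASK-1) had 58.5, 50.9 and 47.3 normalized counts in controls and 8.93, 11.1 and 4.56 in KO, with no overlap. Its log2 fold change was -2.60 (limma, SE 0.44, adjusted p = 0.00044). Kcnk3 shares its locus with the antisense gene Gm9899. Kcnk9 (TASK-3) had 30.7, 19.3 and 31.5 normalized counts in controls and 0.993, 3.55 and 4.56 in KO, where they came from 1, 9 and 3 reads. The groups were apart, and the log2 fold change was -2.90 (limma, SE 0.57, adjusted p = 0.0012). With so few reads in KO, its size depends on the pseudocount of 1 added before the log, and with a pseudocount of 5 it was -2.0.

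Kcnk5 (TASK-2, an alkaline-activated channel best known from kidney) was the gene without a call. It had 26.3, 22.0 and 22.1 normalized counts in controls and 10.9, 17.8 and 10.6 in KO. The KO libraries were all lower than the controls. The means were 23.5 ± 2.46 and 13.1 ± 4.04 (SD, n = 3 each), and the log2 fold change was -0.83 (limma, SE 0.42, adjusted p = 0.116). It was -0.03 after quantile normalization (adjusted p = 0.959) and passed with scaling to the total without Rn45s (-1.13, adjusted p = 0.041) and in a fit with no variance trend (-0.83, adjusted p = 0.023).

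Kcnk12 encodes THIK-2, a THIK subunit that is mostly held inside the cell when expressed alone. It had 48.2, 37.9 and 36.3 normalized counts in controls and 8.93, 20.5 and 10.6 in KO. The groups did not overlap, and KO replicate 2 was the highest of the KO libraries, as it also was for Kcnk3 and Kcnk5. The log2 fold change was -1.61 (limma, SE 0.43, adjusted p = 0.0081). After quantile normalization the change was -0.80 and was no longer called (adjusted p = 0.125).

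Kcnk6 and Kcnk13 were the genes that rose. Kcnk6 (TWIK-2; chr7:29221926-29232515, minus strand) had 1083, 990.3 and 1170 normalized counts in controls and 4944, 4284 and 3830 in KO. The lowest KO library was over the highest control by a wide margin. The level was 4.03-fold higher in KO, with means of 1081 ± 89.6 and 4352 ± 560.2 (SD, n = 3 each; limma log2 fold change 2.0, SE 0.11, adjusted p = 1.9e-07). No annotated gene overlaps Kcnk6.

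Kcnk13 (THIK-1; chr12:99964499-100062682, plus strand) had 257, 319 and 322 normalized counts in controls and 1043, 1010 and 971 in KO. The 3 KO libraries lay close together, all above the controls. Kcnk13 overlaps the gene Gm23291, which lies on the other strand. The level was 3.37-fold higher in KO, with means of 299 ± 36.5 and 1008 ± 36.4 (SD, n = 3 each; limma log2 fold change 1.76, SE 0.13, adjusted p = 1.3e-06).

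**Figure D2:**
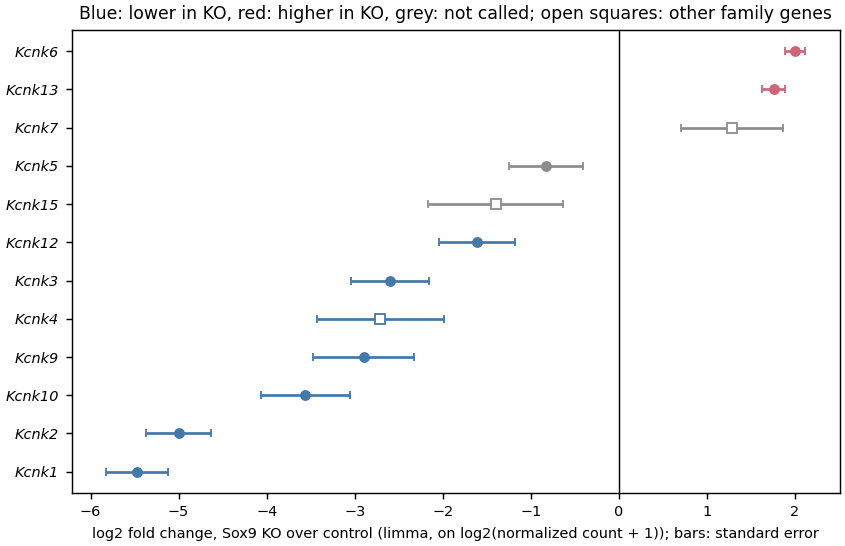
Log2 fold change of the 12 K2P genes tested (x axis, Sox9 KO over control; bars are the standard error of the limma fit, 3 libraries per group), with filled circles for the 9 genes described and open squares for other family genes. Kcnk1 and Kcnk2 lie farthest to the left at -5.47 and -5.00, and Kcnk6 and Kcnk13 lie farthest to the right at 2.0 and 1.76.

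Of the 5 remaining family genes, 3 reached the minimum for testing, and all were near the limit of detection. Kcnk4 (TRAAK, a stretch-gated relative of TREK-1) had 11.7, 13.8 and 26.8 normalized counts in controls and 3.97, 2.76 and 0 in KO. It was called lower (limma log2 fold change -2.71, SE 0.72, adjusted p = 0.0077). The log2 fold change was -1.61 with a pseudocount of 5 and -3.96 with 0.1. Without KO replicate 3, the library at 0, it was -2.0, and the gene overlaps Catsperz. Kcnk7, whose product is not known to carry current alone, had 10.2, 2.75 and 12.6 normalized counts in controls and 14.9, 19.3 and 24.3 in KO. The KO libraries were all higher, but the gene was not called (log2 fold change 1.28, SE 0.58, limma adjusted p = 0.081) except after quantile normalization (2.13, adjusted p = 0.0071), and the change was 0.70 without control replicate 2. Kcnk15 (TASK-5) overlapped between groups, with 8.77, 3.44 and 6.30 normalized counts in controls and 1.99, 4.74 and 0 in KO, and was not called (limma log2 fold change -1.40, adjusted p = 0.140; -1.98 without KO replicate 2 and -0.72 without KO replicate 3). Kcnk16 (TALK-1) had 0 reads in all 6 libraries, which allows up to 3 reads, or 1.18 to 4.73 normalized counts by library. Kcnk18 (TRESK, a channel of sensory neurons) had 2 reads in KO replicate 2 and none elsewhere.

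To compare levels between genes, normalized counts were divided by the length of all exons of a gene in kb. On this scale Kcnk1 was the most abundant K2P transcript in controls, at 2560 ± 453 normalized counts per kb (SD, n = 3). Kcnk6 followed at 260.4 ± 21.6, Kcnk2 at 129.6 ± 12.1, Kcnk13 at 96.2 ± 11.7 and Kcnk12 at 20.7 ± 3.30 per kb. The ranges of neighbours in this order did not overlap down to Kcnk3, Kcnk10 and Kcnk5, below which the ranges of Kcnk5, Kcnk7, Kcnk4, Kcnk15 and Kcnk9 ran into one another. In KO the order began with Kcnk6 at 1049 ± 135, Kcnk13 at 324 ± 11.7 and Kcnk1 at 64.2 ± 39.4 per kb, and these 3 were apart. Below them the ranges of Kcnk7, Kcnk12, Kcnk2 and Kcnk5 overlapped. The order of the first 6 genes in each group was the same with the length of the longest coding transcript.

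The summed level of the 14 family genes was 3311, 3393 and 2626 normalized counts per kb in controls and 1603, 1427 and 1377 in KO, a 2.12-fold lower sum. Kcnk1 made up 83.3%, 84.9% and 77.8% of that sum in controls and 3.27%, 2.24% and 7.85% in KO. The leading transcript thus differed between the groups in every library. Kcnk6 took 8.55 ± 1.94% of the sum in controls and 71.2 ± 3.77% in KO (SD, n = 3 each). Kcnk13 took 3.15 ± 0.728% and 22.1 ± 1.03%, and Kcnk2 took 4.24 ± 0.827% and 0.305 ± 0.207%. A share also moves when another member of the sum moves.

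**Figure D3:**
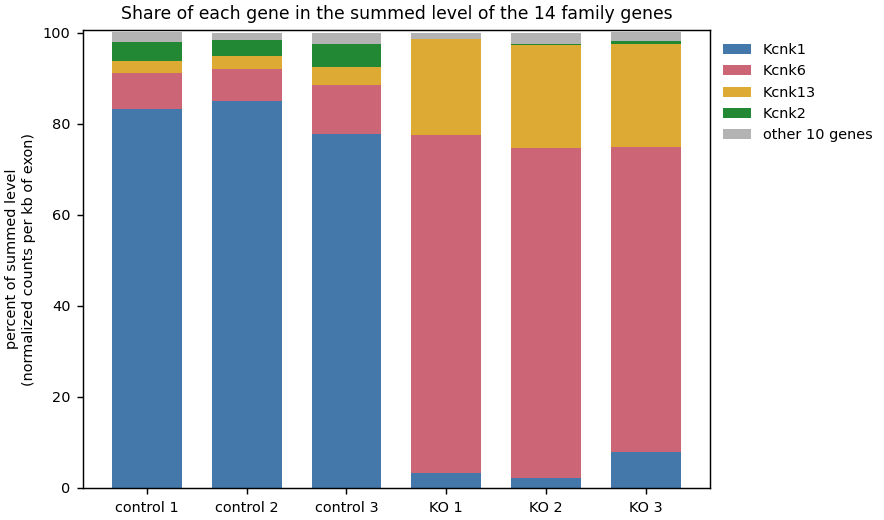
Share of each gene (percent, stacked bars from 0) in the summed normalized counts per kb of the 14 K2P genes, 1 bar per library. Kcnk1 fills 77.8% to 84.9% of the control bars, and Kcnk6 and Kcnk13 fill most of the KO bars.

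Paralogs were also compared as ratios within a library, in which the size factor of the library cancels except for the 1 added to each normalized count, and this matters where counts are low. A difference in the mix of sorted cells does not cancel in such a ratio, and its part was not tested. For the TWIK pair, log2 of Kcnk1 over Kcnk6 was 2.51, 2.70 and 1.96 in controls and -5.39, -5.89 and -3.98 in KO, a difference of -7.48. The sign of the ratio therefore differed between groups in every library. For the THIK pair, log2 of Kcnk13 over Kcnk12 was 2.85 ± 0.40 in controls and 6.22 ± 0.60 in KO (SD, n = 3 each), a difference of 3.37. For the TREK pair, log2 of Kcnk2 over Kcnk10 was 3.09 ± 0.07 and 1.66 ± 0.50, a difference of -1.43, with every KO library under every control. These 3 pairs did not overlap between groups. Each had an exact two-sided permutation p of 0.10 (0.13 adjusted over the 4 pairs), the smallest that 3 against 3 libraries allow. For the TWIK and THIK pairs this outcome was fixed, because the genes of each pair moved in opposite directions without overlap. Their p-values add nothing to the results for the single genes. The TASK pair overlapped: log2 of Kcnk3 over Kcnk9 was 0.91, 1.36 and 0.57 in controls and 2.32, 1.40 and 0.00 in KO (exact permutation p = 0.70). Its difference of 0.30 was -0.24 without KO replicate 1, in which Kcnk9 had 1 read.

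**Figure D4:**
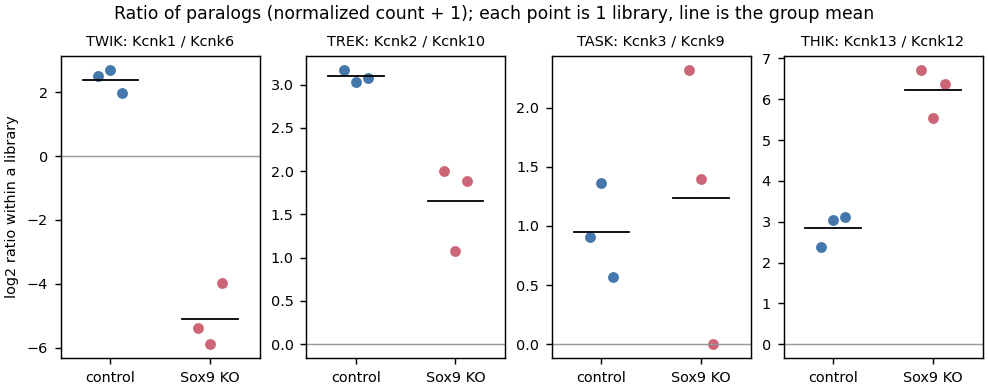
Log2 ratio of the 2 paralogs of each K2P group (normalized count + 1) in each library, with controls in blue, Sox9 KO in red and a line at the mean of 3 libraries. The TWIK ratio is above 0 in every control and below 0 in every KO library, and the TASK ratios overlap.

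Marker genes of several cell types also differed between the groups, and each K2P gene was therefore also divided by the summed markers of the same library. Per 10000 counts of astrocyte markers, Kcnk1 stood at 177, 191 and 149.9 in controls and 39.3, 21.9 and 71.7 in KO. The groups remained apart, with a log2 difference of -2.11 in place of the -5.47 of the normalized counts. The summed markers weigh the most abundant genes most, Slc1a3 (log2 fold change -2.72) and Aqp4 (-3.26), and the single markers reached -5.25. Kcnk2 stood at 19.8, 17.1 and 21.6 in controls and 3.67, 5.20 and 10.8 in KO (log2 difference -1.64), again without overlap. Kcnk3, Kcnk9 and Kcnk10 overlapped between groups on this scale, and Kcnk5 and Kcnk12 were higher in every KO library than in any control. Relative to the summed neuron markers, Kcnk1 and Kcnk2 were also lower in every KO library (log2 differences -2.77 and -2.30), and Kcnk3, Kcnk9 and Kcnk10 overlapped. Kcnk5 and Kcnk12 were again higher in every KO library than in any control (log2 differences 1.87 and 1.09). Kcnk6 per 10000 counts of microglia and macrophage markers was 47.4, 49.3 and 58.0 in controls and 62.3, 53.1 and 55.1 in KO. These ranges overlapped, and the means differed by 1.10-fold against 4.03-fold before. Kcnk13 stood at 11.3, 15.9 and 15.9 in controls and at 13.2, 12.5 and 14 in KO, which also overlapped (KO over control 0.919). The part of the marker changes in the K2P results was not tested.

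**Figure D5:**
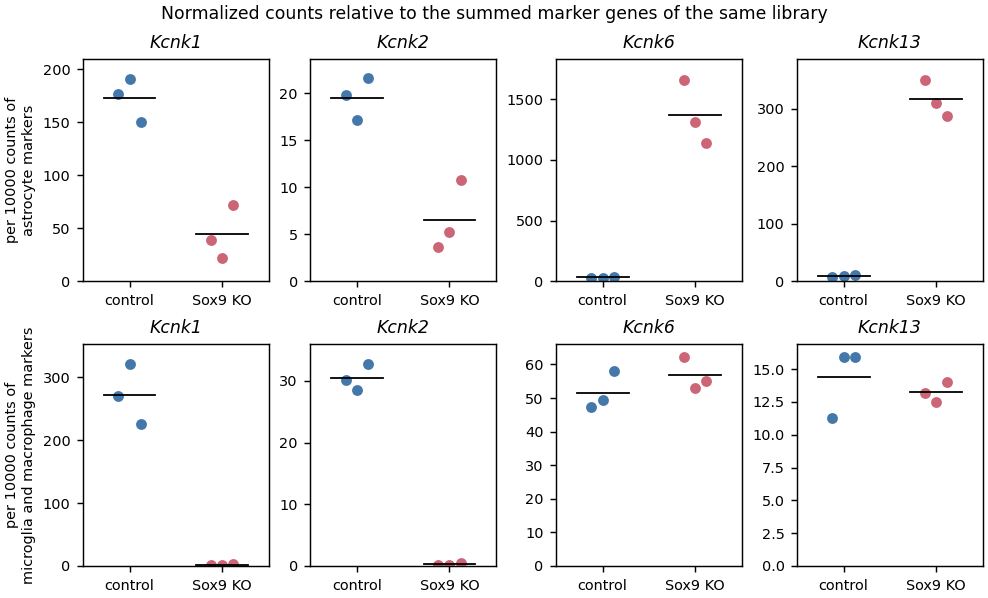
Normalized counts of Kcnk1, Kcnk2, Kcnk6 and Kcnk13 per 10000 normalized counts of summed astrocyte markers (upper row) or microglia and macrophage markers (lower row) of the same library, on linear axes from 0, with a line at the mean of 3 libraries. Relative to astrocyte markers Kcnk1 and Kcnk2 are lower in all KO libraries, and relative to microglia and macrophage markers Kcnk6 and Kcnk13 overlap between groups.

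The genes whose profile over the 6 libraries was most like that of a K2P gene were found among 15558 genes, by the root mean square difference of centred log2 values. Nearest to Kcnk1 were Lpo (0.19), Rbpms2 (0.19) and Cml3 (0.23). Nearest to Kcnk2 were Sox21 (0.15), which encodes another SOX factor, Chsy3 (0.18) and Gm266 (0.23). Kcnk6 was nearest to Dok1 (0.05), Hk3 (0.06) and Nlrp3 (0.06), which encodes an inflammasome sensor. Kcnk13 was nearest to Naip6 (0.06), Baz1a (0.06) and Lcp1 (0.07), which encodes the leukocyte actin-bundling protein L-plastin. A small distance needs a like difference between the groups, and no reference distance was computed. The likeness describes these 6 libraries only.

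Of 13 genes whose products bind or traffic K2P channels, 3 were called lower and 4 higher, beside 28.8% and 22.2% of all genes tested. The 3 most abundant, the 14-3-3 genes Ywhaz and Ywhab, which act in TASK export to the surface, and Sort1, a sorting receptor for TREK-1, had log2 fold changes of 0.35, 0.08 and 0.29, were not called, and turned negative after quantile normalization. The called genes, named after their values were seen, were Map2 (-2.65), S100a10 (-2.30) and Akap5 (-0.64) in the lower direction and Arf6 (1.13), Senp1 (0.70), Copb1 (0.64) and Stx8 (0.61) in the higher direction. S100a10 encodes p11, an adaptor of TASK-1, Arf6 acts in TWIK-1 endocytosis, and Senp1 removes SUMO from proteins. The smaller of these calls depended on the scaling: Copb1, Stx8 and Senp1 were not called with scaling to the library total, and Copb1 and Akap5 were not called after quantile normalization. The call of Akap5 was also lost with no variance trend (adjusted p = 0.093), with edgeR (adjusted p = 0.067) and with DESeq2, where its log2 fold change of -0.58 was under 1.5-fold. Leaving out control 1, 2 or 3 or KO 1 ended the call of Akap5 (log2 fold change -0.65 to -0.34), and leaving out control 1, KO 1 or KO 3 that of Stx8 (0.56 to 0.57).

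Inward rectifiers are the other main class of glial potassium channels, and 8 of 15 tested were called lower and 2 higher, beside 28.8% and 22.2% of all genes (median log2 fold change -2.23). Kcnj10 (Kir4.1), the main inward rectifier of astrocytes, fell by 2.64 on the log2 scale, Kcnj16 (Kir5.1) fell by 4.23, and Kcnj2 (Kir2.1) rose by 1.74. The median of the 9 K2P genes was -2.60. The 15 inward rectifiers include genes at low levels. The 9 K2P genes leave out the 3 other tested family genes, Kcnk4 (-2.71), Kcnk7 (1.28) and Kcnk15 (-1.40). The 2 medians therefore cover unlike sets and do not rank the classes.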

How the data were processed

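RNA-seq was made from TurboRFP-positive olfactory bulb cells of 3 control and 3 Sox9 KO mice, from 10 ng of total RNA with the NuGEN Trio kit. The authors mapped reads to mm10 with STAR 2.5.0a, made gene counts with the packages GenomicFeatures and GenomicAlignments, and scaled those with DESeq2 1.20.0. No source used here gives the gene annotation or the strand setting. The deposited signal values are named RPM, but they are read counts divided by a size factor of each library: 100.0% were whole reads within 0.01 read. They are called normalized counts.

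Genes with a mean of at least 1 (18413 of 24421, with 6008 not tested) entered a limma fit (version 3.58.1, under R 4.3.3) with a variance trend. The scale was log2 of the normalized count plus a pseudocount of 1. Genes were called at a Benjamini-Hochberg adjusted p under 0.05 over all genes tested and at least 1.5-fold. Fold changes are KO over control and understate changes of low genes. Recovered reads were tested as alternatives with edgeR 4.0.16 and DESeq2 1.42.0. Alternatives were other scalings, pseudocounts and filters, a replicate block, and leaving out single libraries. The fits were also run on simulated counts in which far fewer genes changed than were called here, and no result here rests on that run. Replicates differed beyond counting error, which is all that a limit of 3 reads covers.

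The members, lists and tests were chosen with earlier results of these data known. Named were all family genes, Sox9, up to 3 of the most abundant partner and inward rectifier genes, up to 2 markers of a list, and the 3 nearest profiles of Kcnk1, Kcnk2, Kcnk6 and Kcnk13 among genes with a mean of at least 10. The 7 partner genes that were called were also named, after their values were seen. Gene positions and lengths are from GENCODE M21.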

Additional observations from a re-analysis of the deposited data

How the results depend on the processing

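Over 19 alternative settings, 5 to 7 of the 9 K2P genes were called lower and 2 were called higher. The 5 came from quantile normalization, and the 7 from scaling to the total without Rn45s and from a fit with no variance trend. Of 153 values of the 9 genes under alternatives, 150 kept their direction and their side of the threshold, 1 lost its call (Kcnk12 after quantile normalization), 2 gained one (Kcnk5) and none changed sign. The median log2 fold change of -2.60 was -2.0 with a pseudocount of 5 and -2.75 with 0.1, -2.83 with scaling to the total, -2.91 without Rn45s and -1.80 after quantile normalization. It ran from -2.84 to -2.28 when 1 library was left out. The TASK pair difference of 0.30 was -0.14 with a pseudocount of 5 and ran from -0.24 to 0.92 when 1 library was left out. The cause was not tested. Among partner genes, Ywhaz was -0.32 after quantile normalization, Ywhab was -0.16, -0.25 and -0.37 with total scaling, total scaling without Rn45s and quantile normalization, and Sort1 was -0.04 and -0.12 under the last 2 of these.

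Samples share replicate numbers without a stated pairing, and deviations of same-numbered samples had correlations of -0.05, -0.01 and -0.01. A replicate block gave 6 K2P genes called lower, 2 called higher, and 9275 calls over all genes against 9389 without it. Between 1 and 19 reads lay behind Kcnk9 and Kcnk10 in the KO libraries. Kcnk3 had 9, 28 and 3 reads there, and Kcnk12 had 9, 52 and 7. Kcnk2 had 11, 43 and 24, and Kcnk5, which was not called, had 11, 45 and 7. Depth therefore limits the fold changes of these genes.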
